A study of Homo sapiens with 21 samples.

Results

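The earliest step of a serial culture of human fibroblasts was compared: BJ cells at passage 11 (P11) against BJ cells at passage 3 (P3). BJ is an established line of human skin fibroblasts with a limited replicative lifespan. The comparison took the 3 P11 libraries and the 3 P3 libraries, 6 of the 21 libraries in the series. These groups carry no drug, solvent or other agent in their labels and differ, as labelled, in passage alone. The other libraries came from BJ cells at P24, P30 and P33 and from P11 cells given doxorubicin (DOX) at 50 ng/ml or the solvent DMSO. Poly(A)-selected RNA was sequenced and reads were counted per gene. All genes that passed a count filter were described, 14346 of the 61544 in the table.

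Human fibroblasts divide for a limited number of population doublings and then leave the cell cycle, a state called replicative senescence that is known for induced cell cycle inhibitors, loss of the lamina protein lamin B1 and secreted inflammatory factors. At early passages the cells divide, and culture on stiff plastic in serum is itself known to act on fibroblasts through growth factors, actin tension and matrix contact. The genes below are ordered by role: division, lipid synthesis, the largest single changes, contraction, matrix, signalling, interferon response, stress response, protein synthesis and energy metabolism.

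Levels are CPM, gene counts divided by library size, with library sizes scaled by the trimmed mean of M-values (TMM), so a level is a share of the sampled RNA and not an amount per cell. Totals were 15.001 to 18.994 M counts in the P11 libraries, against 20.886 to 26.35 M in those of P3. Mitochondrially encoded transcripts took 4.42% to 5.60% of counts at P11 and 4.95% to 5.23% at P3, and long noncoding RNAs took 1.46% to 1.64% at P11 and 0.945% to 0.962% at P3. In the P24, P30 and P33 libraries long noncoding RNAs took 1.52% to 2.11%, so P3 stood apart from every other passage in this share. What set the P3 libraries apart was not tested. The first principal component, with 69.7% of the variance, set the P11 libraries (24.76 to 30.76) apart from the P3 libraries (-28.74 to -28.08). P11 replicate 2 lay nearest to P3 on it, and it also stood apart in interferon genes, described with them. Nothing in the labels says that the replicates came from separate cultures. A p-value here therefore reflects the spread between libraries alone, which may be technical. Values with ± are means and SDs of 3 libraries.

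Most genes tested differed between the passages, the larger number of them by little. A gene was called at an adjusted p under 0.05 in edgeR's quasi-likelihood test, with Benjamini-Hochberg adjustment over the 14346 genes, and every adjusted p below is from that test. Of the genes tested, 8046 (56.1%) were called, 3853 of them (26.9%) higher and 4193 (29.2%) lower at P11. A change of at least 2-fold was rarer and leaned the other way, with 580 genes (4.04%) higher and 183 (1.28%) lower. Replicates of P11 and P3 did not overlap for 8736 genes (60.9%). With upper-quartile scaling in place of TMM, 59.3% of the called genes were higher, against 47.9% with TMM, so the balance of small rises and falls depended on the scaling.

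**Figure D1:**
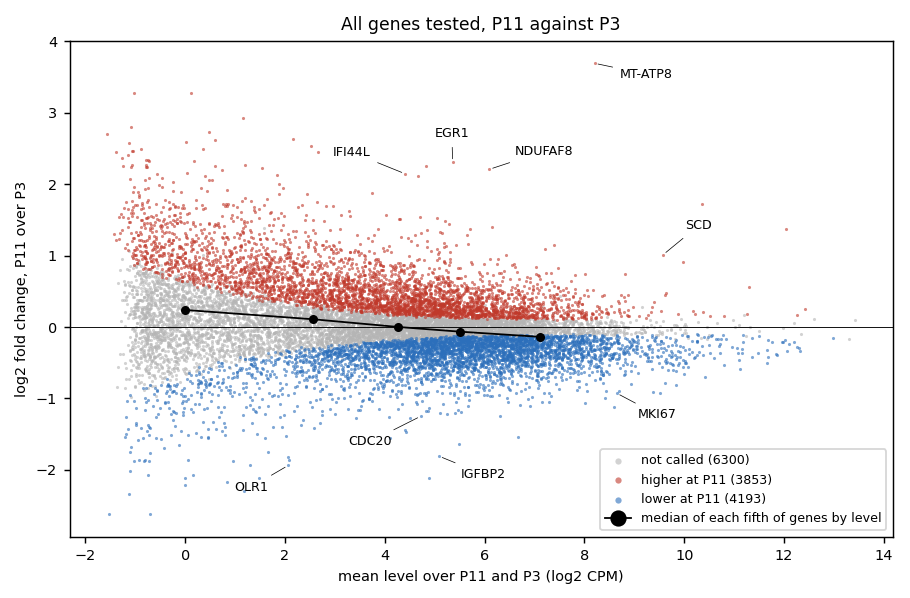
Each point is 1 of 14346 genes, with its mean level over the P11 and P3 libraries in log2 CPM (x axis) and its log2 fold change of P11 over P3 (y axis); red genes were called higher and blue genes lower at P11, and black points join the medians of 5 equal groups of genes by level. The median runs from 0.24 in the lowest group to -0.14 in the highest.

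Genes of cell division were lower at P11, those of G2 and mitosis more so than those of DNA synthesis. Of 53 tested genes of the G2 and M phase list, 45 fell and 2 rose, against 29.2% and 26.9% of all genes. Their median log2 fold change was -0.56, against -0.01 over all genes. Their summed level was 3960 ± 280 CPM at P11 and 5930 ± 149 CPM at P3 (SD, n = 3 libraries each). MKI67 encodes Ki-67, the standard marker of cycling cells (ENSG00000148773.14, chr10:128096659-128126423, minus strand, on the files' hg38 build). It had 304, 265 and 259 CPM in the P11 libraries, against 559, 476 and 537 CPM in the P3 libraries (log2 fold change -0.92, SE 0.0598, edgeR adjusted p = 1.05e-11). All P11 libraries lay below all P3 libraries, yet MKI67 was still well detected at P11. CDC20, an activator of the anaphase-promoting complex, had 16.1, 17.6 and 12.99 CPM in the P11 libraries, against 38.5, 33.8 and 39.5 CPM in the P3 libraries (log2 fold change -1.25, SE 0.0857, edgeR adjusted p = 2.63e-11). KIF20A, a kinesin of the cleavage furrow, had 46.9, 51.8 and 41.5 CPM in the P11 libraries, against 112, 106 and 116 CPM in the P3 libraries (log2 fold change -1.25, SE 0.0706, edgeR adjusted p = 1.86e-12). NEK2, a centrosome kinase, averaged 15.9 ± 2.7 CPM at P11 and 34.02 ± 1.1 CPM at P3, and CKS1B, which binds the cyclin-dependent kinases, 11.3 ± 1 CPM at P11 and 31.1 ± 2 CPM at P3. For each of these 4 genes the groups did not overlap, which for CDC20 and KIF20A the rule for naming the 15 largest falls required. CKS1B and NEK2 share same-strand sequence with another gene, so part of their reads could have been assigned elsewhere. The 2 listed genes that rose were CBX5, the heterochromatin protein HP1-alpha, at 189.6 ± 17 CPM at P11 and 112 ± 3.7 CPM at P3, and G2E3, whose log2 fold change of 0.18 lost its call in 6 of the 15 alternative analyses. In bulk RNA, fewer dividing cells and less RNA of these genes per dividing cell cannot be told apart.

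Promoters of the G2 and M list shared a short element. The cell cycle genes homology region (CHR), TTTGAA, is known to bind the complexes that repress such genes in resting cells. It was present on either strand in the 250 bases before the RefSeq start (GRCh38.p14) of 24 of 44 list promoters (54.5%), against 917 of 10553 promoters of all genes tested (8.69%). The windows below show it, in capitals, for 4 genes that fell, 5′ to 3′ on the gene's strand.
CDC20 (chr1:43358896-43358941, plus strand): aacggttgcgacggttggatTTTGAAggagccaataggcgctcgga
CCNB2 (chr15:59105097-59105142, plus strand): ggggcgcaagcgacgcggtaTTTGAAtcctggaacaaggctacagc
HMMR (chr5:163460584-163460629, plus strand): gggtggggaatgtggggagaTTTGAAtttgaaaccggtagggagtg
MKI67 (chr10:128126445-128126490, minus strand): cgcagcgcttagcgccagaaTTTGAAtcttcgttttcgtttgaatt
CCNB2, which encodes cyclin B2, had a log2 fold change of -0.92, and HMMR, a spindle-associated hyaluronan receptor, one of -0.73. In MKI67 and HMMR the letters occur a second time within the window or beside it. The element did not part the list's own genes: those that hold it had a median log2 fold change of -0.48 (22 of 24 lower) and those that do not one of -0.67 (15 of 20 lower). Of 893 genes off the list that hold it, 28.1% were lower, close to the 29.2% over all genes.

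Among S phase genes, 21 of 43 fell and 2 rose, against 29.2% and 26.9% of all genes, with a median of -0.18. Their summed level was 1680 ± 70 CPM at P11 and 2030 ± 53.5 CPM at P3. MCM7, a subunit of the replicative helicase, had 67.1, 77.5 and 61.5 CPM at P11, against 122, 118 and 115 CPM at P3 (log2 fold change -0.78, SE 0.0639, edgeR adjusted p = 4.36e-10). GINS2, of the same helicase complex, had 5.99, 7.38 and 4.61 CPM at P11, against 10.7, 9.84 and 10.4 CPM at P3 (log2 fold change -0.76, SE 0.129, edgeR adjusted p = 2.19e-05). Both sets of libraries were apart for each. MRPL36, a mitochondrial ribosomal protein carried by the S phase list, had the largest fall of the list (-0.92). USP1, a deubiquitinase of DNA repair, and POLD3, a DNA polymerase delta subunit, rose by 0.28 and 0.32 on the log2 scale. MCM7 and POLD3 overlap a neighbour on the same strand. Of the 43 tested, 15 overlap in this way, and 12 S phase genes fell when those were left out.

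Cell cycle inhibitors and senescence markers moved in both directions, 4 higher and 7 lower of 17 tested, with a median of -0.04. Over all genes 26.9% were higher and 29.2% lower. Of the 4 higher, 2 rose by at least 2-fold, both below the 5 CPM set for naming list members, and none of the list fell by as much. Those higher were 2 without P11 replicate 3, and those lower were 2 without genes that overlap another on the same strand. CDKN1A, the inhibitor p21, had 204, 222 and 214 CPM in the P11 libraries, against 201, 210.2 and 199 CPM in the P3 libraries (log2 fold change 0.07, SE 0.0458, edgeR adjusted p = 0.223). The groups touched and CDKN1A was not called, although it was called higher in 3 alternatives, upper-quartile scaling among them. CDKN2A, which encodes p16 and ARF, had 12.1, 13.7 and 10.8 CPM in the P11 libraries, against 15.2, 18.02 and 18.02 CPM in the P3 libraries, so every P11 library was below every P3 library (log2 fold change -0.47, SE 0.109, edgeR adjusted p = 0.000677). CDKN2B, encoding p15, had 16.7, 14.6 and 15.9 CPM in the P11 libraries, against 12.04, 13.3 and 11.9 CPM in the P3 libraries (log2 fold change 0.34, SE 0.132, edgeR adjusted p = 0.0334). Its groups did not overlap, but the call was lost in 5 alternatives, leaving out P3 replicate 1 or 3 or P11 replicate 1 or 3 among them. LMNB1, lamin B1, averaged 41.2 ± 4.1 CPM at P11 and 45.6 ± 2.9 CPM at P3, and its libraries overlapped (log2 fold change -0.14, edgeR adjusted p = 0.0716). It was called lower without P3 replicate 1, without P11 replicate 1 and with no count filter. GLB1, lysosomal beta-galactosidase, averaged 44.1 ± 2 CPM at P11 and 45.4 ± 2.5 CPM at P3 and was not called. RB1, the retinoblastoma protein, was lower by little (-0.19), and its relative RBL2, p130, was higher (0.44). HMGB1, an abundant chromatin protein, had the second largest fall of the list, at 272 ± 12 CPM at P11 and 417 ± 8.6 CPM at P3. IL6 averaged 5.49 ± 1.4 CPM at P11 and 4.19 ± 0.88 CPM at P3 and was not called, and CXCL8, the chemokine IL-8, had 30 counts in each group and was too low to test. TERT, the telomerase catalytic subunit, had no count in any of the 6 libraries.

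Cholesterol synthesis was the lipid pathway that rose most evenly. Of 24 tested genes, 21 were higher and 1 lower, with a median log2 fold change of 0.46, against 26.9% of all genes higher. The summed level was 2240 ± 61.3 CPM at P11 and 1640 ± 55.8 CPM at P3. HMGCS1, the synthase that makes HMG-CoA, had 216, 179.6 and 209.6 CPM in the P11 libraries, against 88.9, 102 and 94.7 CPM in the P3 libraries (log2 fold change 1.08, SE 0.077, edgeR adjusted p = 4.27e-11). Every P11 library was above every P3 library. Later steps were also higher: MSMO1, a sterol demethylase, averaged 83.5 ± 3.2 CPM at P11 and 49.3 ± 2.8 CPM at P3, and HSD17B7, a sterol reductase, 10.9 ± 0.85 CPM at P11 and 5.3 ± 0.35 CPM at P3. NSDHL, another enzyme of sterol demethylation, was the gene that fell, with 24.1, 26.6 and 28.97 CPM at P11, against 36.5, 35.4 and 32.3 CPM at P3 (log2 fold change -0.39, SE 0.0764, edgeR adjusted p = 0.000121). The calls on this list stayed at 21 higher when any 1 library was left out, and 2 were lower without P11 replicate 2.

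SREBF2 encodes SREBP-2, the transcription factor of sterol synthesis genes, and was itself higher (log2 fold change 0.50). A sterol regulatory element spelled CACCCCAC was found in 1 of 17 list promoters (5.88%), against 2.27% of all, and that promoter was SREBF2's own. It is shown with the element in capitals.
SREBF2 (chr22:41832953-41833000, plus strand): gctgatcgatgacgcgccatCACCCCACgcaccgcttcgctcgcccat
A related spelling, TCACNCCAC, matched the same site, 1 base longer, and no other list promoter, against 0.853% of all promoters. The 250 bases searched are short, and no match says only that these letters are not in this window.

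Fatty acid genes rose in part, 10 of 17 higher and 3 lower, against 26.9% and 29.2% of all genes. SCD, the desaturase that makes oleic acid, had 1069, 957 and 1034 CPM in the P11 libraries, against 462, 539 and 518 CPM in the P3 libraries (log2 fold change 1.01, SE 0.0554, edgeR adjusted p = 1.19e-12). The lowest P11 value lay well above the highest P3 value. ME1, a source of NADPH, averaged 76.6 ± 1.9 CPM at P11 and 46.9 ± 1.8 CPM at P3, and FADS1, the delta-5 desaturase, 138 ± 12 CPM at P11 and 88.2 ± 2.3 CPM at P3. Of the elongases, ELOVL5 and ELOVL1 were lower, at 236 ± 14 CPM at P11 and 306 ± 3.2 CPM at P3 and at 47.5 ± 3.7 CPM at P11 and 65.8 ± 3.9 CPM at P3, while ELOVL6 was higher (0.37). ACSL4, which also fell, lost its call with upper-quartile scaling. ELOVL5, ELOVL1, ACSL4 and FADS1 overlap a neighbour on the same strand. Of the 17 tested, 9 are of that kind, and without them 6 fatty acid genes were higher and none lower. Among 9 genes of cholesterol efflux and liver X receptor targets, 4 were higher and 3 lower. ABCA1, the exporter of cholesterol to apolipoprotein A-I, had 108, 96.7 and 102 CPM at P11, against 66.7, 59.98 and 61.8 CPM at P3 (log2 fold change 0.70, SE 0.0547, edgeR adjusted p = 2.08e-10). ABCA5, a related transporter, averaged 51.4 ± 4.3 CPM at P11 and 23.5 ± 1 CPM at P3. APOE, an acceptor of that cholesterol, was lower, with 6.04, 4.8 and 4.35 CPM at P11, against 10.6, 9.72 and 10.2 CPM at P3 (log2 fold change -1.0, SE 0.116, edgeR adjusted p = 1.11e-07). The lysosomal cholesterol carrier NPC2 was lower as well (-0.35). All 3 that fell, NPC1 being the other, overlap a neighbour on the same strand, as ABCA5 does.

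The largest rises among protein-coding genes were led by EGR1, an immediate early transcription factor (ENSG00000120738.8, chr5:138465479-138469303, plus strand). It had 69.05, 70.04 and 65.5 CPM in the P11 libraries, against 13.7, 13.3 and 14.6 CPM in the P3 libraries (log2 fold change 2.30, SE 0.334, edgeR adjusted p = 2.9e-06). The replicates of each group lay close together, and the SE takes in the spread of EGR1 at the later passages, since 1 model was fitted to all 15 passage libraries. NDUFAF8, an assembly factor of respiratory complex I (ENSG00000224877.4, chr17:81239305-81241310, plus strand), had 111, 114 and 111 CPM in the P11 libraries, against 23.2, 23.9 and 25.9 CPM in the P3 libraries (log2 fold change 2.21, SE 0.0613, edgeR adjusted p = 2.99e-18). The P11 and P3 values were each within a few CPM of their own group. Later means of NDUFAF8 were 114 CPM at P24, 102 at P30 and 111 at P33, so P3 stood apart from every other passage. CEBPB, a transcription factor of inflammatory and stress genes, had 99.5, 112 and 97.3 CPM in the P11 libraries, against 34.5, 39.6 and 43.3 CPM in the P3 libraries (log2 fold change 1.40, SE 0.0801, edgeR adjusted p = 1.92e-12). FBXO32, atrogin-1, a ubiquitin ligase known from muscle atrophy, had 53.6, 42.5 and 50.5 CPM in the P11 libraries, against 15.2, 19.7 and 15.6 CPM in the P3 libraries (log2 fold change 1.53, SE 0.102, edgeR adjusted p = 1.73e-11). Each of these genes had all P11 libraries above all P3 libraries, as the rule for naming the 15 largest rises required.

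The rest of the 15 largest rises spanned log2 fold changes from 1.38 in GPCPD1, a glycerophosphocholine hydrolase, to 2.14 in the interferon-induced IFI44L. PTGIS, prostacyclin synthase, averaged 29.2 ± 1.6 CPM at P11 and 10.2 ± 0.35 CPM at P3. SESN3, a sestrin that restrains mTORC1, averaged 7.28 ± 1.7 CPM at P11 and 2.24 ± 0.15 CPM at P3, and PELI2, a ubiquitin ligase of innate immune signalling, 8.5 ± 1.4 CPM at P11 and 2.29 ± 0.55 CPM at P3. MCOLN3, a cation channel of endolysosomes, averaged 14.7 ± 1.4 CPM at P11 and 4.74 ± 0.38 CPM at P3. PNRC1, a nuclear receptor coactivator, averaged 24.5 ± 1.1 CPM at P11 and 8.21 ± 0.59 CPM at P3, and GPCPD1 75.4 ± 6.2 CPM at P11 and 28.9 ± 3.2 CPM at P3. SPHKAP, an anchor of protein kinase A, averaged 38.7 ± 2.1 CPM at P11 and 13.3 ± 1.3 CPM at P3. MN1, a transcriptional coactivator, and CSRNP3, a nuclear protein, had log2 fold changes of 1.48 and 1.57. OAS2 is described with the interferon genes. Of these genes PELI2, SESN3, MCOLN3, SPHKAP, OAS2, CEBPB and GPCPD1 overlap a gene on the opposite strand. Whether reads were counted by strand is not stated in the sources used here.

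The largest falls were led by OLR1. This gene, the scavenger receptor LOX-1 for oxidised lipoprotein (ENSG00000173391.9, chr12:10158301-10172138, minus strand), had 1.76, 1.62 and 1.82 CPM in the P11 libraries, against 6.62, 6.52 and 6.76 CPM in the P3 libraries (log2 fold change -1.94, SE 0.163, edgeR adjusted p = 7.5e-10). IL13RA2, the decoy receptor of interleukin 13, had 1.66, 2.12 and 1.69 CPM in the P11 libraries, against 6.34, 7.39 and 6.16 CPM in the P3 libraries (log2 fold change -1.85, SE 0.154, edgeR adjusted p = 5.76e-10). IGFBP2, an insulin-like growth factor binding protein (ENSG00000115457.10, chr2:216632828-216664436, plus strand), had 13.8, 15.6 and 15.8 CPM in the P11 libraries, against 52.6, 50.5 and 55.1 CPM in the P3 libraries (log2 fold change -1.81, SE 0.0755, edgeR adjusted p = 1.06e-14). The groups were far apart in each, where the rule for naming the 15 largest falls required no overlap. The SE was smallest for IGFBP2. PENK, the precursor of enkephalin peptides, had 12.6, 10.4 and 10.98 CPM at P11, against 32.7, 27.9 and 33.7 CPM at P3 (log2 fold change -1.47, SE 0.11, edgeR adjusted p = 1.14e-10), and GAL, the precursor of galanin, 1.39, 2.63 and 1.43 CPM at P11, against 6.78, 6.16 and 6.61 CPM at P3 (log2 fold change -1.81, SE 0.226, edgeR adjusted p = 3.31e-07). Both are neuropeptide genes, and neither overlapped between the passages, as the same rule required. NOG encodes noggin, an antagonist of bone morphogenetic proteins, and averaged 2.1 ± 0.11 CPM at P11 and 5.6 ± 1.7 CPM at P3. PRLR, the prolactin receptor, averaged 2.95 ± 0.56 CPM at P11 and 7.29 ± 0.97 CPM at P3. DUSP14, a phosphatase of MAP kinases, averaged 9.95 ± 0.98 CPM at P11 and 23.8 ± 7.1 CPM at P3. PALM, a membrane-bound paralemmin, and METRNL, a secreted meteorin-like factor, had log2 fold changes of -1.26 and -1.23. Several of these genes are at only a few CPM, where the counting error is a larger share of the spread.

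**Figure D2:**
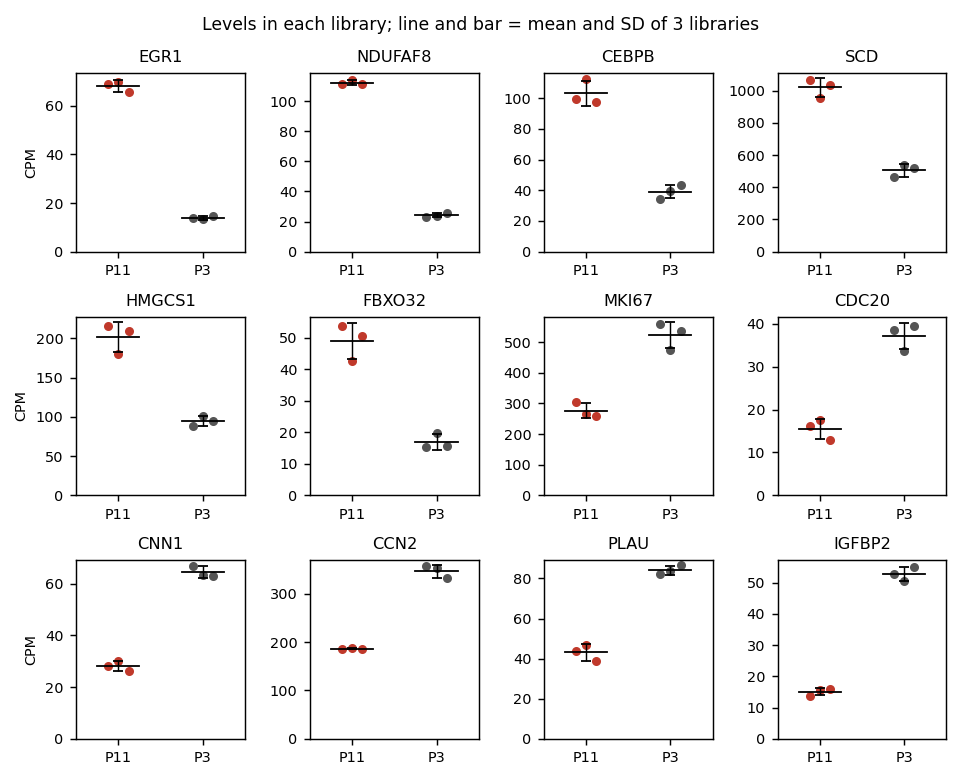
Levels of 12 genes in CPM (y axes, from 0) in the P11 libraries (red, left) and the P3 libraries (grey, right) of BJ cells; each point is 1 library, the horizontal line the mean and the bar the SD of 3 libraries. The groups do not overlap in any of the 12, with EGR1, NDUFAF8, CEBPB, SCD, HMGCS1 and FBXO32 higher at P11 and the other 6 lower. The rule for the largest changes required no overlap of EGR1, NDUFAF8, CEBPB, FBXO32, CDC20 and IGFBP2.

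Contractile and myofibroblast genes were lower at P11, 20 of 25 tested, with 2 higher and a median log2 fold change of -0.35, against 29.2% of all genes lower. In the highest of 5 equal groups of genes by level 52.8% were lower. Fibroblasts in culture are known to build stress fibres, and serum response factor and YAP drive many of these genes. CNN1, calponin, which binds actin filaments, had 28.3, 30.3 and 26.3 CPM in the P11 libraries, against 67.1, 63.3 and 62.9 CPM in the P3 libraries (log2 fold change -1.18, SE 0.0646, edgeR adjusted p = 1.19e-12). ACTA2, smooth muscle actin, had 41.3, 40.5 and 44.6 CPM in the P11 libraries, against 62.7, 63.9 and 66.4 CPM in the P3 libraries (log2 fold change -0.61, SE 0.0506, edgeR adjusted p = 5.64e-10). TAGLN, transgelin, had 505, 552 and 532 CPM in the P11 libraries, against 724, 707 and 696 CPM in the P3 libraries (log2 fold change -0.42, SE 0.0506, edgeR adjusted p = 1.91e-07). In each gene all P11 libraries lay below all P3 libraries. TPM2, a tropomyosin, averaged 2798 ± 64 CPM at P11 and 3754 ± 220 CPM at P3, and FLNA, the actin crosslinker filamin A, 4409 ± 200 CPM at P11 and 5354 ± 81 CPM at P3. The 2 that rose were FAP, a cell surface protease, at 446 ± 14 CPM at P11 and 381 ± 13 CPM at P3, and COL1A1, described with the collagens. Of the 25, 6 overlap a neighbour on the same strand, ACTA2 and TAGLN among them, and 12 list genes fell without those.

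A CArG box, the site of serum response factor, lay in 3 of 20 list promoters (15%), against 1.01% of all promoters searched. ACTG2, enteric smooth muscle actin, had a log2 fold change of -0.98 and holds 2 such boxes, the farther of which is shown in capitals.
ACTG2 (chr2:73892878-73892927, plus strand): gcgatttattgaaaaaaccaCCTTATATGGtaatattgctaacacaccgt
The other 17 promoters of the list hold none in this window, and 15 of their genes fell all the same.

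Genes known as YAP and TAZ targets were lower too, 16 of 22, with 2 higher and a median of -0.22, against 29.2% of all genes lower and 26.9% higher. CCN2, connective tissue growth factor, had 187, 188 and 186 CPM in the P11 libraries, against 357, 353 and 332 CPM in the P3 libraries (log2 fold change -0.90, SE 0.0489, edgeR adjusted p = 1.19e-12). ANKRD1, an ankyrin repeat protein much used as a YAP readout, had 6.25, 7.59 and 7.34 CPM in the P11 libraries, against 17.9, 13.3 and 16.1 CPM in the P3 libraries (log2 fold change -1.16, SE 0.139, edgeR adjusted p = 1.92e-07). F3, tissue factor, had 119.9, 138 and 127 CPM in the P11 libraries, against 236, 228 and 236 CPM in the P3 libraries (log2 fold change -0.86, SE 0.0674, edgeR adjusted p = 2.31e-10). The groups were apart in each. Those higher were RBMS3, an RNA-binding protein, at 17.9 ± 1 CPM at P11 and 7.49 ± 0.55 CPM at P3, and DLC1, a GTPase-activating protein, at 66.3 ± 0.84 CPM at P11 and 58.4 ± 0.63 CPM at P3. Both overlap a neighbour on the same strand, as 8 of the 22 do. Without those genes 8 of the list were lower and 0 higher.

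Genes of the plasminogen activator system were lower at several points. Of 13 plasminogen activator and serpin genes, 7 fell, against 29.2% of all genes, and 7 of the alternatives called 1 or 2 others higher. Of the 13, 4 overlap a neighbour on the same strand, PLAUR among them, and 3 fell and 2 rose without those. PLAU, urokinase, had 43.6, 47.03 and 38.8 CPM in the P11 libraries, against 82.2, 83.5 and 86.7 CPM in the P3 libraries (log2 fold change -0.96, SE 0.0882, edgeR adjusted p = 3.14e-09). PLAUR, its receptor, had 50.1, 55.9 and 53.5 CPM in the P11 libraries, against 92.7, 109 and 105 CPM in the P3 libraries (log2 fold change -0.95, SE 0.0708, edgeR adjusted p = 1.08e-10), and PLAT, tissue plasminogen activator, 46.5, 51.03 and 45.3 CPM in the P11 libraries, against 98.2, 88.7 and 93.6 CPM in the P3 libraries (log2 fold change -0.97, SE 0.0684, edgeR adjusted p = 3.77e-11). Both activators and the receptor were lower at P11, with no overlap between the libraries. Among 15 matrix metalloproteinases and their inhibitors 4 fell, a share near the 29.2% of all genes, and 2 rose. Those higher were 4 without P3 replicate 1 and 5 with upper-quartile scaling. TIMP1, a broad inhibitor, averaged 242 ± 12 CPM at P11 and 449 ± 45 CPM at P3. MMP2, gelatinase A, averaged 1898 ± 84 CPM at P11 and 2448 ± 40 CPM at P3, and overlaps a neighbour on the same strand. MMP1, interstitial collagenase, averaged 1214 ± 72 CPM at P11 and 1354 ± 66 CPM at P3 and was not called (log2 fold change -0.16, edgeR adjusted p = 0.0586), though 5 alternatives called it lower. MMP3, stromelysin, averaged 415 ± 31 CPM at P11 and 428 ± 16 CPM at P3 and was not called. Of 14 ADAM and ADAMTS genes 3 rose, ADAM17, the sheddase of TNF and EGF family ligands, among them (0.58), and 4 fell, with ADAMTS1 at -0.62. Neither count exceeded the share over all genes, 26.9% higher and 29.2% lower.

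Collagen genes split, 11 of 26 higher and 9 lower, with a median of 0.10. Over all genes 26.9% were higher and 29.2% lower. Of the 26, 10 overlap a neighbour on the same strand, and 4 were lower without those. COL1A1 and COL3A1, the main fibrillar collagens of dermis, were slightly higher. COL3A1 averaged 798 ± 33 CPM at P11 and 687 ± 18 CPM at P3 (log2 fold change 0.22, SE 0.0477, edgeR adjusted p = 0.000448). COL1A1 averaged 5154 ± 180 CPM at P11 and 4591 ± 100 CPM at P3 (log2 fold change 0.17, SE 0.0669, edgeR adjusted p = 0.0368), but the call was lost without P3 replicate 1 or 3 and without P11 replicate 2 or 3 (log2 fold change 0.14 without P11 replicate 2). COL6A3, a chain of the beaded microfibrils, had 6143, 5878 and 5834 CPM at P11, against 4947, 4961 and 5029 CPM at P3 (log2 fold change 0.26, SE 0.0518, edgeR adjusted p = 0.000177), while COL6A2, another chain of the same collagen, had 1042, 1061 and 1032 CPM at P11, against 1650, 1703 and 1724 CPM at P3 (log2 fold change -0.70, SE 0.0482, edgeR adjusted p = 2.87e-11). The chains of collagen VI thus differed in opposite directions, with no overlap in either. Basement membrane collagens were lower in COL4A2 (-0.50) and COL18A1 (-0.65) and higher in COL4A5 (0.39). COL7A1, of anchoring fibrils, averaged 202 ± 12 CPM at P11 and 155 ± 4 CPM at P3. Of 18 genes of collagen processing, 8 fell and 3 rose, and 4 fell without 5 that overlap a neighbour on the same strand. PLOD1, a lysyl hydroxylase, averaged 146 ± 7.6 CPM at P11 and 229 ± 5.9 CPM at P3. The crosslinking oxidase LOXL2 averaged 693 ± 43 CPM at P11 and 979.5 ± 16 CPM at P3. P4HA1, a prolyl hydroxylase, averaged 181 ± 7.6 CPM at P11 and 142 ± 5.1 CPM at P3.

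Other matrix genes fell more often than they rose, 16 of 32 lower and 6 higher, although 10 were lower with upper-quartile scaling. Over all genes 29.2% were lower and 26.9% higher, and in the highest of 5 equal groups by level 52.8% were lower. Of the 32, 4 overlap a neighbour on the same strand, and 8 were lower without those. TNC, tenascin-C, a matrix protein of wounds, had 524, 505 and 486 CPM in the P11 libraries, against 989.8, 928 and 949 CPM in the P3 libraries (log2 fold change -0.92, SE 0.0763, edgeR adjusted p = 5.85e-10). THBS1, thrombospondin 1, averaged 4551 ± 93 CPM at P11 and 5595 ± 70 CPM at P3 and TGFBI 112 ± 0.5 CPM at P11 and 172 ± 4.9 CPM at P3. HAPLN1, which links hyaluronan to proteoglycans, had 7.48, 9.15 and 8.7 CPM in the P11 libraries, against 3.61, 4.07 and 3.38 CPM in the P3 libraries (log2 fold change 1.19, SE 0.145, edgeR adjusted p = 2.47e-07), and VCAN, versican, averaged 82.3 ± 4.6 CPM at P11 and 57.4 ± 1.6 CPM at P3. Of 9 hyaluronan genes 4 fell and 1 rose. Without 4 that overlap a neighbour on the same strand, 1 fell and 2 rose. CD44, the hyaluronan receptor, averaged 797 ± 4.7 CPM at P11 and 1256 ± 19 CPM at P3, and UGDH, which makes the sugar precursor of hyaluronan, 169 ± 12 CPM at P11 and 103 ± 1.1 CPM at P3. Among 15 integrins 8 fell and 2 rose. ITGB1, the common beta-1 chain, had 3146, 3212 and 3236 CPM at P11, against 4105, 4188 and 4229 CPM at P3 (log2 fold change -0.38, SE 0.0436, edgeR adjusted p = 7.88e-08), and ITGA2, of the collagen receptor, averaged 82.02 ± 6.5 CPM at P11 and 132 ± 2.3 CPM at P3. ITGA6, of the laminin receptor, averaged 174 ± 3.1 CPM at P11 and 261 ± 6.3 CPM at P3. ITGA8, partner of nephronectin, was the larger of the rises, with 8.34, 6.78 and 4.94 CPM at P11, against 3.61, 4.58 and 4.74 CPM at P3. ITGA4, the other, lost its call in 8 alternatives.

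Growth factor genes were mixed, 13 of 27 lower and 8 higher, against 29.2% and 26.9% of all genes. Of the 27, 8 overlap a neighbour on the same strand, and 8 were lower and 5 higher without those. The lower ones included EGF receptor ligands. AREG, amphiregulin, had 2.57, 2.12 and 1.49 CPM in the P11 libraries, against 7.1, 5.33 and 5.65 CPM in the P3 libraries (log2 fold change -1.53, SE 0.193, edgeR adjusted p = 3.84e-07), and HBEGF 3.96, 3.69 and 3.31 CPM in the P11 libraries, against 10.5, 7.94 and 9.54 CPM in the P3 libraries (log2 fold change -1.34, SE 0.14, edgeR adjusted p = 2.11e-08). EREG, epiregulin, another ligand of that receptor, was higher, with 165, 179.6 and 162 CPM in the P11 libraries, against 129, 122 and 129 CPM in the P3 libraries (log2 fold change 0.42, SE 0.113, edgeR adjusted p = 0.0031). The passages did not overlap for any of these ligands, as the rule for the largest falls required of AREG and HBEGF. The directions differed. FGF7, keratinocyte growth factor, averaged 7.68 ± 0.68 CPM at P11 and 14.6 ± 1.7 CPM at P3, and IGF2 30.9 ± 2 CPM at P11 and 18.01 ± 0.57 CPM at P3. PDGFRA averaged 83.5 ± 6 CPM at P11 and 63.5 ± 3.1 CPM at P3, and PDGFRB, at 273 ± 5.3 CPM at P11 and 250.2 ± 4.4 CPM at P3, was called (0.13) but not in 4 of the alternatives. Of 9 IGF-binding and related genes 6 fell and 1 rose. IGFBP5 was the one that rose, with 3022, 2974 and 2959 CPM at P11, against 2060, 1968 and 2072 CPM at P3 (log2 fold change 0.55, SE 0.0521, edgeR adjusted p = 4.41e-09). IGFBP3, the main carrier in serum, averaged 182 ± 17 CPM at P11 and 239 ± 21 CPM at P3, and STC1, stanniocalcin 1, 44.7 ± 0.62 CPM at P11 and 80.7 ± 3 CPM at P3.

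In the TGF-beta superfamily 10 of 30 genes fell and 7 rose, shares near the 29.2% lower and 26.9% higher over all genes. Of the 30, 11 overlap a neighbour on the same strand, and 6 fell and 4 rose without those. TGFB2 averaged 10.3 ± 1.3 CPM at P11 and 17.3 ± 1.8 CPM at P3 and FST, follistatin, which binds activins, 172 ± 6.1 CPM at P11 and 291 ± 6.7 CPM at P3. SMAD7, an inhibitor that TGF-beta itself induces, averaged 16.2 ± 0.69 CPM at P11 and 11.6 ± 0.44 CPM at P3, BMPR2, a receptor of bone morphogenetic proteins, 203 ± 7.6 CPM at P11 and 148 ± 6.3 CPM at P3, and GREM1, their antagonist gremlin, 122 ± 7.3 CPM at P11 and 94.2 ± 7.4 CPM at P3. Antagonists of bone morphogenetic proteins therefore differed in direction, with NOG lower and GREM1 higher. In the WNT pathway 10 of 24 fell and 7 rose, but 4 rose without P3 replicate 1 or without P11 replicate 1. The secreted inhibitors SFRP1 and DKK1 averaged 653 ± 23 CPM at P11 and 987 ± 28 CPM at P3 and 256 ± 16 CPM at P11 and 339 ± 8.9 CPM at P3. WNT2B, a ligand, averaged 10.7 ± 0.28 CPM at P11 and 6.18 ± 0.62 CPM at P3, and TCF7, a nuclear effector, 22.3 ± 1 CPM at P11 and 14.4 ± 0.32 CPM at P3. Of 12 chemokine and cytokine genes tested 3 fell and 2 rose, both below the shares over all genes. CCL2, which attracts monocytes, had 28.6, 30.6 and 27.9 CPM at P11, against 46.98, 47.5 and 51.2 CPM at P3 (log2 fold change -0.74, SE 0.117, edgeR adjusted p = 1.03e-05), and CXCL12 averaged 166 ± 5.1 CPM at P11 and 208 ± 3.2 CPM at P3.

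Interferon-stimulated genes were higher at P11, but by an amount that differed widely among the P11 libraries. Of 43 tested, 29 rose, 11 of them by at least 2-fold, against 26.9% and 4.04% of all genes. Their median log2 fold change was 0.60. These genes encode antiviral proteins and sensors that type I interferon induces. IFI44L had 14.2, 62.2 and 26.8 CPM in the P11 libraries, against 7.62, 6.32 and 10.04 CPM in the P3 libraries (log2 fold change 2.14, SE 0.385, edgeR adjusted p = 4.72e-05). OAS1, which makes the messenger that activates RNase L, had 5.83, 22.3 and 10.8 CPM in the P11 libraries, against 3.81, 3.67 and 6.21 CPM in the P3 libraries (log2 fold change 1.56, SE 0.365, edgeR adjusted p = 0.000832), and OAS2, its relative, 26.6, 90.5 and 46.5 CPM in the P11 libraries, against 17.7, 16.6 and 25.1 CPM in the P3 libraries (log2 fold change 1.49, SE 0.294, edgeR adjusted p = 0.000146). P11 replicate 2 was the highest of the P11 libraries in each. It was highest in 42 of the 43 genes, and it lay above all P3 libraries in 43, P11 replicate 3 in 34 and P11 replicate 1 in 14. Without P11 replicate 2, 16 of the 43 genes were called higher, with a median of 0.29, while 25.1% of all genes were called higher. IFI44L, OAS1 and OAS2 were still called then. MX1, an antiviral GTPase, had 98.6, 399.9 and 193 CPM in the P11 libraries, against 95.1, 75.6 and 142 CPM in the P3 libraries and was no longer called. STAT2, the transcription factor downstream of the receptor, had 239.5, 274 and 262 CPM in the P11 libraries, against 169, 164 and 162 CPM in the P3 libraries, and the 3 P11 libraries lay close together. The source of the spread among P11 libraries was not tested.

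Promoters of this list often held the interferon-stimulated response element, searched as GAAANNGAA on both strands. It was present in 20 of 34 list promoters (58.8%), against 587 of 10553 (5.56%). The windows show it in capitals for genes that rose by at least 2-fold.
IFI44L (chr1:78620355-78620403, plus strand): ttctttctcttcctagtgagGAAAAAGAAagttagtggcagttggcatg
BST2 (chr19:17405732-17405780, minus strand): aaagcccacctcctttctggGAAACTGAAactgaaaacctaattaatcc
RSAD2 (chr2:6865786-6865834, plus strand): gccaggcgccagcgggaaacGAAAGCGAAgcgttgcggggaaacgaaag
IFI6 (chr1:27672320-27672368, minus strand): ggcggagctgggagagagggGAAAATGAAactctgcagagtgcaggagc
BST2 encodes tetherin, RSAD2 viperin and IFI6 a mitochondrial survival protein. RSAD2 and BST2 averaged only 3.82 and 2.46 CPM at P11 and lost their call without P11 replicate 2, while IFI44L and IFI6 kept theirs. List genes with the element had a median log2 fold change of 0.67 (14 of 20 higher) and those without it one of 0.62 (12 of 14 higher). Among 567 genes off the list with these letters 27.9% were higher, near the 26.9% of all genes. Antigen presentation by HLA class I did not follow as a group. Of 14 genes 5 were higher and 4 lower, against 26.9% and 29.2% of all genes. Without P11 replicate 2, 3 genes of HLA class I presentation were higher. NLRC5, its transcriptional activator, had 52.6, 59.6 and 59.4 CPM at P11, against 37.2, 33.7 and 35.7 CPM at P3 (log2 fold change 0.69, SE 0.0784, edgeR adjusted p = 8.72e-08), whereas the heavy chain HLA-E was lower, at 119.6 ± 6.7 CPM at P11 and 166 ± 4.7 CPM at P3. HLA genes are polymorphic and alike in sequence, so their counts are uncertain.

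**Figure D3:**
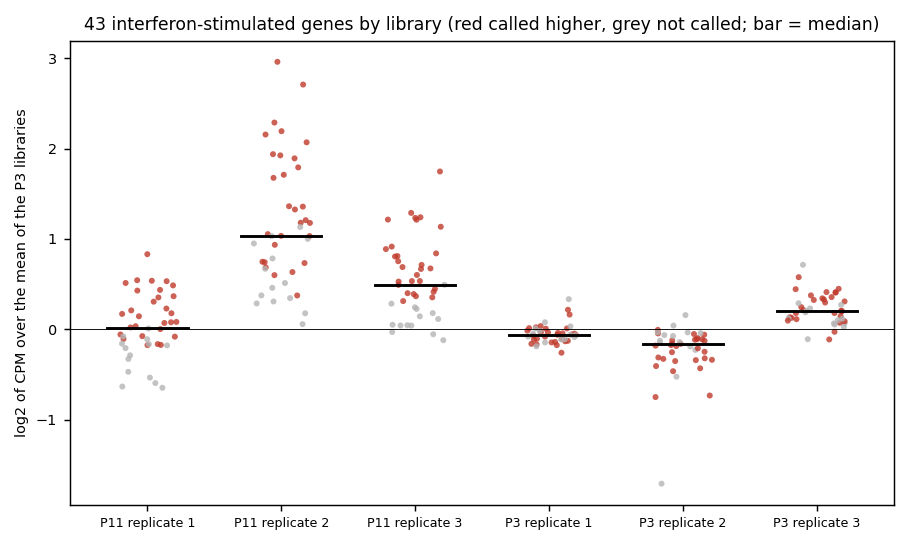
Each point is 1 of 43 interferon-stimulated genes in 1 library (x axis, P11 libraries left and P3 libraries right), given as the log2 of its CPM over the mean of the P3 libraries (y axis); red genes were called higher and the bar is the median. P11 replicate 2 lies highest, P11 replicate 3 next, and P11 replicate 1 overlaps the P3 libraries.

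The unfolded protein and integrated stress response genes split 12 higher and 10 lower of 33 (36.4% and 30.3%), against 26.9% higher and 29.2% lower over all genes. SLC7A11, the cystine importer, had 46.3, 46.4 and 42.1 CPM in the P11 libraries, against 19.7, 22.2 and 21.6 CPM in the P3 libraries (log2 fold change 1.09, SE 0.0664, edgeR adjusted p = 4.33e-12). PPP1R15A, GADD34, which restores translation after stress, had 261, 249.8 and 254 CPM in the P11 libraries, against 408, 365 and 399.7 CPM in the P3 libraries (log2 fold change -0.62, SE 0.0622, edgeR adjusted p = 1.29e-08). The groups were apart in both, in opposite directions. CHAC1, which degrades glutathione, averaged 4.94 ± 0.96 CPM at P11 and 7.69 ± 0.61 CPM at P3. Of 24 NRF2 targets 12 rose and 3 fell, with a median of 0.20, against 26.9% of all genes higher. Without P3 replicate 1, with upper-quartile scaling or without 3 genes that overlap a neighbour on the same strand, 1 fell. ABCC3, an exporter of conjugates, averaged 24.2 ± 1.3 CPM at P11 and 14.99 ± 0.29 CPM at P3 and AKR1B1, aldose reductase, 192 ± 12 CPM at P11 and 262 ± 24 CPM at P3. Immediate early genes other than EGR1 did not move as one, 7 of 22 higher and 5 lower in all, near the shares over all genes. JUN had 79.5, 84.2 and 78.01 CPM at P11, against 123, 126 and 137 CPM at P3 (log2 fold change -0.67, SE 0.0986, edgeR adjusted p = 3.42e-06), DUSP1 averaged 24.6 ± 1.7 CPM at P11 and 39.5 ± 1.4 CPM at P3, and KLF4 48.9 ± 2 CPM at P11 and 37.9 ± 0.49 CPM at P3.

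Genes of protein synthesis were lower as a group by a modest amount. Of 74 cytosolic ribosomal protein genes 61 fell and 3 rose, with a median log2 fold change of -0.31, and their summed level was 27000 ± 706 CPM at P11 and 32200 ± 1090 CPM at P3. Over all genes 29.2% were lower, and 52.8% in the highest of 5 equal groups by level. Without genes that overlap another on the same strand 30 ribosomal protein genes fell. RPL36 had 104, 116 and 108 CPM in the P11 libraries, against 212, 236 and 192 CPM in the P3 libraries (log2 fold change -0.96, SE 0.07, edgeR adjusted p = 6.81e-11) and RPS21 18.2, 22.4 and 20.5 CPM in the P11 libraries, against 32.5, 43.9 and 38.1 CPM in the P3 libraries (log2 fold change -0.91, SE 0.0924, edgeR adjusted p = 1.55e-08). RPL41, the shortest of these proteins, went the other way, with 1358, 1341 and 1268 CPM in the P11 libraries, against 647, 792 and 666 CPM in the P3 libraries (log2 fold change 0.91, SE 0.073, edgeR adjusted p = 3.16e-10). RPL41 averaged 1280 CPM at P24, 1277 at P30 and 925 at P33, so P3 was its lowest point. Processed pseudogenes of these genes are common in the genome, and reads of single members may have been split or lost. Of 32 translation factors 22 fell and 2 rose, and 1 rose without P3 replicate 1 or without P11 replicate 3. Of the 32, 16 overlap a neighbour on the same strand, and 10 translation factors fell without those. EIF4E, the cap-binding protein, averaged 60.8 ± 6 CPM at P11 and 98.2 ± 3.3 CPM at P3, EIF6 21.9 ± 1.9 CPM at P11 and 36.5 ± 3 CPM at P3 and EIF4A2, a helicase, 448 ± 28 CPM at P11 and 393 ± 10 CPM at P3.

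Genes of energy metabolism were lower as well. Of 35 nuclear genes of the respiratory chain 29 fell and 2 rose, with a median of -0.31 and a summed level of 2700 ± 69.5 CPM at P11 and 3330 ± 29.3 CPM at P3. Over all genes 29.2% were lower, and 52.8% in the highest of 5 equal groups by level. Of the 35, 9 overlap a neighbour on the same strand, and 19 respiratory genes fell without those. NDUFB9 and NDUFB10, subunits of complex I, averaged 40.3 ± 3.9 CPM at P11 and 75.9 ± 4.2 CPM at P3 and 159.9 ± 7.5 CPM at P11 and 259 ± 7.7 CPM at P3. Among 13 mitochondrially encoded mRNAs 5 fell and 1 rose, but those lower were 3 without P11 replicate 2, 8 without P11 replicate 3 and 9 with no count filter. Their summed level was 93.0%, 73.2% and 98.9% of the P3 mean in P11 replicates 1, 2 and 3. MT-CO2, a cytochrome c oxidase subunit, had 3227, 2670 and 3816 CPM in the P11 libraries, against 4232, 3923 and 4544 CPM in the P3 libraries (log2 fold change -0.39, SE 0.0915, edgeR adjusted p = 0.000927). MT-ATP8 was the one that rose, with 849, 323 and 467 CPM in the P11 libraries, against 46.8, 36.9 and 43.4 CPM in the P3 libraries, but its frame overlaps that of MT-ATP6 on the same strand, so its count is uncertain and the P11 libraries themselves were widely spread. At P24, P30 and P33 MT-ATP8 averaged 473, 361 and 458 CPM, so P3 alone was low. Glycolysis and hypoxia genes fell in 20 of 29 and rose in 6, with a median of -0.28. Of the 29, 12 overlap a neighbour on the same strand. When those were left out, 12 glycolysis and hypoxia genes fell and 3 rose. LDHA, lactate dehydrogenase A, had 432, 404 and 431 CPM in the P11 libraries, against 631, 658 and 698 CPM in the P3 libraries (log2 fold change -0.65, SE 0.0623, edgeR adjusted p = 5.97e-09), and PFKL, liver phosphofructokinase, 112, 117 and 109 CPM in the P11 libraries, against 184, 188 and 185 CPM in the P3 libraries (log2 fold change -0.72, SE 0.0433, edgeR adjusted p = 3.86e-12). ADM, adrenomedullin, a hypoxia-induced peptide, averaged 257 ± 6.6 CPM at P11 and 409 ± 14 CPM at P3. Those higher included CA12, a carbonic anhydrase, at 42.3 ± 1.1 CPM at P11 and 25.9 ± 2.1 CPM at P3 and PDK1, which holds pyruvate back from mitochondria, at 28.5 ± 1.1 CPM at P11 and 20.9 ± 1.5 CPM at P3.

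**Figure D4:**
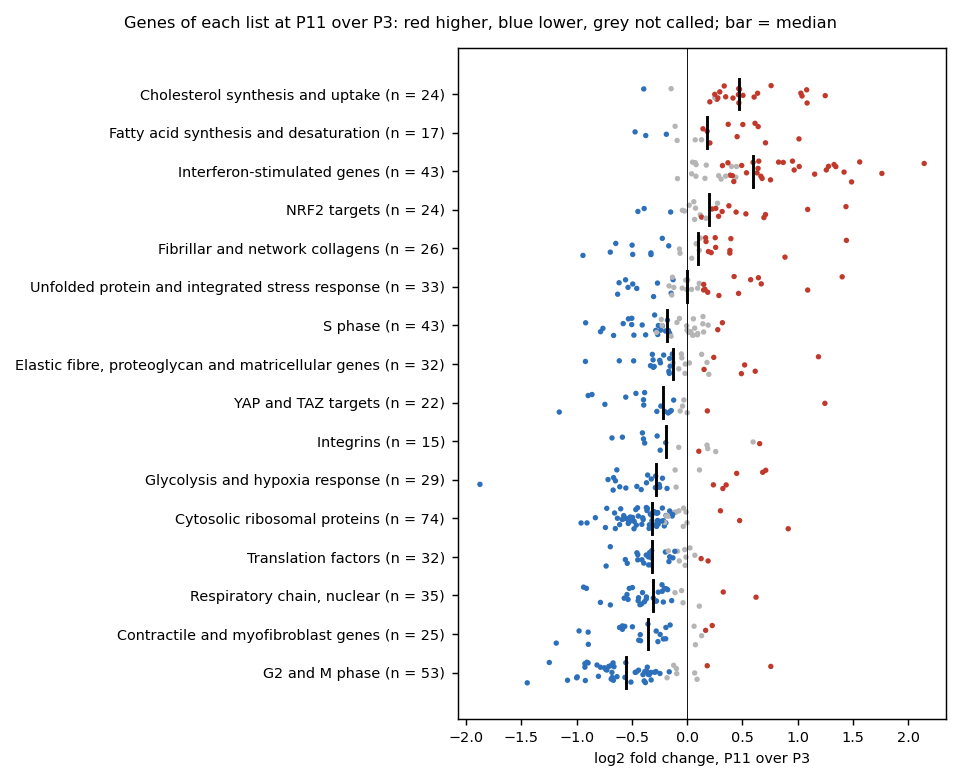
Log2 fold changes of P11 over P3 (x axis) for the tested genes of 16 lists (rows, with the number tested); each point is 1 gene, red called higher, blue called lower and grey not called, and the bar is the list's median. Cholesterol synthesis (median 0.46) and interferon-stimulated genes (0.60) lie to the right, contractile (-0.35) and G2 and M phase genes (-0.56) to the left.

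Beyond named pathways, the fold change went with how abundant, how long and of what kind a gene was. Split into 5 equal groups by level, the genes of the lowest group had a median log2 fold change of 0.24, with 8.08% lower, and those of the highest -0.14, with 52.8% lower. By the span of the gene from start to end, introns included, the median was 0.13 in the longest of 4 equal groups (41.1% higher) and -0.15 in the shortest (37.9% lower). Genes whose transcripts were richest in G and C had a median of -0.11 and the poorest 0.06, a split added after the data were seen. The table's gene length equals this whole span for 100% of genes. Ribosomal and respiratory genes are short and abundant, and the part of length and level in their fall was not tested. Long noncoding RNA genes had a median of 0.24, with 232 at least 2-fold higher and 33 at least 2-fold lower of 1693. Among 12089 protein-coding genes these counts were 313 and 117. The lowest group by level had that same median, with 398 of the 580 genes at least 2-fold higher and 104 of the 183 at least 2-fold lower. Kind and level of gene were not tested apart.

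The named long noncoding RNAs were all of low level. LINC02035 had 8.23, 6.47 and 8.57 CPM in the P11 libraries, against 1.93, 2.41 and 2.78 CPM in the P3 libraries (log2 fold change 1.71, SE 0.15, edgeR adjusted p = 1.37e-09). HMGA1P4, annotated as noncoding and related in sequence to HMGA1, averaged 3.79 ± 0.14 CPM at P11 and 0.785 ± 0.25 CPM at P3, and its reads may belong to that gene. HEXIM2-AS1 averaged 2.84 ± 0.24 CPM at P11 and 0.751 ± 0.11 CPM at P3, and lies antisense to another gene, so reads of both strands may be mixed. Of those lower, LINC00161 averaged 0.941 ± 0.16 CPM at P11 and 2.51 ± 0.44 CPM at P3, LINC00452 0.691 ± 0.33 CPM at P11 and 2.06 ± 0.6 CPM at P3 and PAN3-AS1 1.01 ± 0.084 CPM at P11 and 2.16 ± 0.32 CPM at P3.

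Fibroblast identity genes were expressed at both passages. The summed level of 14 identity genes was 20340 to 21160 CPM in the P11 libraries and 20530 to 21300 CPM in the P3 libraries. Of these genes 5 were higher and 5 lower, against 26.9% and 29.2% of all genes. Those higher were 3 without P3 replicate 1 or 3 or without P11 replicate 3. VIM, vimentin, had 3634, 3889 and 3741 CPM at P11, against 4226, 4407 and 4433 CPM at P3 (log2 fold change -0.21, SE 0.0469, edgeR adjusted p = 0.00043), THY1 averaged 795 ± 31 CPM at P11 and 1061 ± 28 CPM at P3, FBLN1 837 ± 4.3 CPM at P11 and 994 ± 30 CPM at P3 and S100A4 215 ± 7.2 CPM at P11 and 287 ± 16 CPM at P3. Reticular dermal fibroblast genes were lower in 7 of 10, with CNN1, ACTA2 and LMO7 (-0.48) the largest, of which CNN1 and ACTA2 are contractile genes as well. Their summed level at P11 was 80.5% of that at P3, and 4 were lower without 3 that overlap a neighbour on the same strand. Of 6 papillary genes COL18A1 was lower, and the list's sum, most of it from that gene, stood at 213 ± 7.91 CPM at P11 and 304 ± 15.4 CPM at P3, or 70.2%. The low genes HSPB3 and LEF1 were higher (0.82 and 0.47), but 8 alternatives left 1 higher. Among HOX genes, which hold positional identity, 5 of 16 were higher, a share near the 26.9% of all genes, and 2 lower. Those higher were 3 without P3 replicate 1 or without P11 replicate 1. Without the 7 of the 16 that overlap a neighbour on the same strand, 1 was higher. HOXD10 was at 16.2 ± 0.68 CPM at P11 and 12.5 ± 1.1 CPM at P3 and HOXA7 at 10.2 ± 0.5 CPM at P11 and 15.5 ± 1.7 CPM at P3.

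Defining markers of endothelial cells and leukocytes were at or near 0, while the keratinocyte and smooth muscle lists held genes that were expressed. Endothelial markers summed to 7.99 to 9.61 CPM at P11 and 9.99 to 10.9 CPM at P3, 3 of 10 tested, with CDH5 at 0 in all 6 libraries. The leukocyte list had 1 of 11 genes tested and summed to 2.19 to 2.78 CPM at P11 and 1.56 to 2.13 CPM at P3, with CD3D and CD3E at 0. Keratinocyte markers reached 359.0 to 361.5 CPM at P11 and 322.6 to 349.8 CPM at P3, 6 of 14 tested, most of it from DSP, a desmosomal plakin, at 324 CPM at P11 and 310.5 CPM at P3. KRT10 was the one named that rose (25.4 ± 3.6 CPM at P11 and 14.7 ± 0.79 CPM at P3), while the epithelial cadherin CDH1 had 3 counts at P11 and 9 at P3 over 3 libraries. The smooth muscle and pericyte list had 5 of 9 lower and 2 higher, against 29.2% and 26.9% of all genes. Without P3 replicate 2, 1 was higher. The list summed to 373.3 to 384.0 CPM at P11 and 447.2 to 468.6 CPM at P3, and its largest fall was CNN1. Adipocyte markers were 2 of 9 tested, PPARG at 40.9 ± 1.4 CPM at P11 and 30.9 ± 1.9 CPM at P3 among them.

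Levels at later passages show which early differences were kept. The 15 rises and 15 falls were ranked by P11 against P3, but the later libraries shared the fit that called them. Genes named singly below were picked by their ratio of P33 to P11 level. No test is given because the later libraries are set against the same P11 and P3 libraries. A level kept from P11 on sets P3 apart from every later passage, and what set it apart was not tested. Of the 15 largest rises, 13 lay nearer their P11 than their P3 level on a log scale at P24 and 12 at P33. Of the 15 largest falls the numbers were 8 at P24 and 8 at P33. IFI44L averaged 7.995 CPM at P3, 34.4 at P11, 47.9 at P24, 113.8 at P30 and 122.4 at P33, and OAS2 took the same course. CSRNP3 was at 8.05 CPM at P11, 20.2 at P24 and 30.9 at P30, but 18.3 at P33. PTGIS, MN1 and GPCPD1 had the lowest ratio of P33 to P11 among the rises. PTGIS was at 10.2 CPM at P3, 29.2 at P11, 15.1 at P24, 6.55 at P30 and 9.47 at P33, back at its P3 level. Among the falls, PENK and KIF20A were lower still at P33, with PENK at 31.4 CPM at P3, 11.3 at P11 and 2.27 at P33. IGFBP2 turned about, from 52.7 CPM at P3 through 15.1 at P11 and 34.5 at P24 to 84.3 at P30 and 143 at P33, and NOG and AREG had the next highest ratios.

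By list, cholesterol synthesis summed to 1640 CPM at P3, 2240 at P11, 1630 at P24, 978 at P30 and 945 at P33, so P11 was its highest point. G2 and M phase genes summed to 5930 CPM at P3, 3960 at P11, 3630 at P24, 2490 at P30 and 3160 at P33. Contractile genes stood at 85.8% of their P3 sum at P11, 105% at P24 and P30 and 60.1% at P33. Ribosomal protein genes ran from 83.8% at P11 to 57.1% at P33, and interferon-stimulated genes from 138% at P11 to 253% at P30 and 243% at P33.

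**Figure D5:**
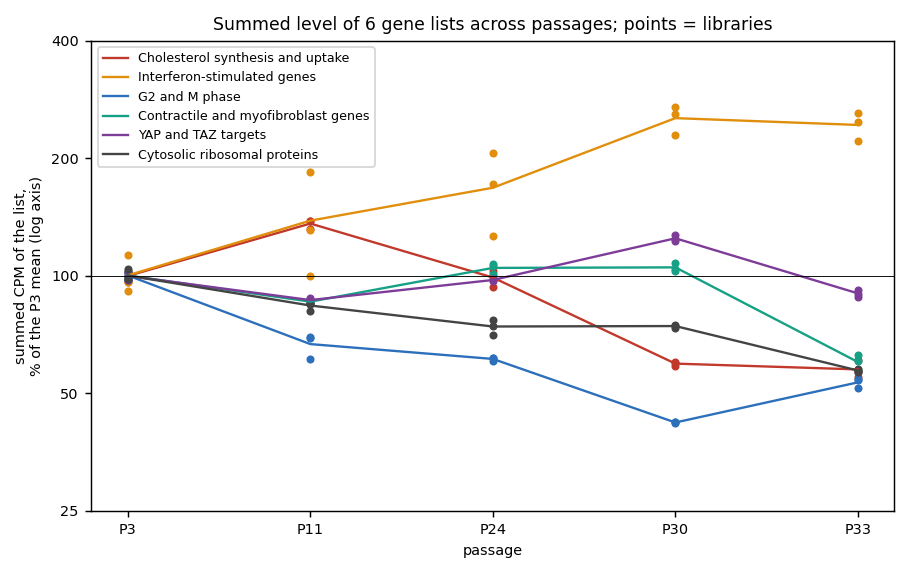
Summed CPM of 6 gene lists as a percentage of their mean at P3 (y axis, log scale) at P3, P11, P24, P30 and P33 (x axis, in passage order, not to scale); each point is 1 library and lines join the means of 3. Cholesterol synthesis peaks at P11 (136%), G2 and M phase genes fall at P11 (66.8%) and stay low, and contractile genes return to their P3 level at P24.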

How the data were processed

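Per the labels' protocols, RNA was isolated with TRIzol, poly(A)-selected, reverse-transcribed from random hexamers, ligated to an adaptor, amplified and sequenced as paired reads on a DNBSEQ-T7. The authors deposited whole-number counts per gene. The submitters' processing notes name HISAT2 2.1.0, featureCounts 2.0.1, cutadapt 3.3, SAMtools 1.11, FastQC 0.11.9 and DESeq2 1.34.0, and the builds hg38 and GRCh38.p13. Their options, such as strand, were not given in the sources used.

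Counts were analysed with edgeR 4.0.16 in R 4.3.3. The filter was filterByExpr (minimum count 10) on the 6 P11 and P3 libraries, and it left out 47198 genes. A quasi-likelihood model with a mean per passage was fitted to the 15 passage libraries after TMM scaling (10 residual degrees of freedom, biological coefficient of variation 5.03%). The DOX and DMSO libraries were left out as they were counted differently. Tests were two-sided, with Benjamini-Hochberg adjustment over 14346 genes. Errors are SDs of 3 libraries or SEs. A group at 0 counts allows up to 3 counts, a limit for counting error alone, because reads copied by PCR are not separate molecules. The fit was tested on simulated counts. Replicates of a passage differed by more than sampling noise (chi-square per degree of freedom 2.70 to 7.19).

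The passages compared, the 44 gene lists and the rule by which genes are named were chosen with earlier results of these data known. No set test was run. The rule took the 15 largest rises and falls among called protein-coding genes of at least 5 CPM whose replicates and same-strand positions do not overlap, 5 long noncoding RNAs each way, the 8 largest CPM differences each way, up to 3 members each way of each list, and a panel of 23 genes, some of which are not reported here. Genes below that level that are named in single counts or for a promoter window were chosen after their values were seen. Promoters are the 250 bases before the start in a RefSeq table (GRCh38.p14), found for 10553 genes tested.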

Additional observations from a re-analysis of the deposited data

How the results depend on the processing

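Leaving out each library in turn gave 7133 to 7605 genes called, 3369 to 3595 higher, 3764 to 4010 lower, 542 to 618 at least 2-fold higher and 178 to 230 at least 2-fold lower. Without genes that overlap another on the same strand, 9744 genes were tested, and 5323 were called, 2673 of them lower and 345 at least 2-fold higher, since fewer genes entered. With no count filter 873 genes were at least 2-fold higher and 319 lower, and with a mean of at least 5 CPM 172 and 56, since these settings add or remove low genes, where large fold changes gather. Median-ratio size factors, upper-quartile scaling, the 6 libraries alone and all 21 libraries kept each of these counts within 1.5 times, as did DESeq2 1.42.0, with 7480 genes called. Same-numbered libraries of P11 and P3 did not deviate together over all genes (correlations 0.0196, -0.00178 and -0.0462), so no pairing by number was seen. The labels do not say whether the numbers mark paired cultures. The fit with a replicate block called 8015 genes, 3839 higher and 4176 lower, and kept the call of 244 of 244 named genes. Of 244 named genes 224 had the same call under every alternative that tested them, and no named gene reversed. The cause of the other changes of call was not tested. Depth limits the genes of a few CPM, and 47198 genes were too low to test.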

Other observations

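Of 40 lysosomal genes tested 14 were lower, a share near the 29.2% of all genes, and 5 were higher, with a median log2 fold change of -0.09. The 5 higher became 2 without P3 replicate 1, 3 without P11 replicate 2 or 3 and 9 with upper-quartile scaling. ATP6V1B2, a subunit of the proton pump, averaged 153 ± 7.6 CPM at P11 and 225 ± 13 CPM at P3, and GLA, alpha-galactosidase A, 12.2 ± 1.3 CPM at P11 and 17.2 ± 0.47 CPM at P3. LIPA, which frees cholesterol from its esters, and CTSO, a cathepsin, were higher, at 276 ± 11 CPM at P11 and 220.1 ± 9 CPM at P3 and 16.1 ± 1.1 CPM at P11 and 9.81 ± 1.1 CPM at P3. Replication-dependent histones could be tested in 17 of 57 genes (most mRNAs of these genes lack the poly(A) tail by which RNA was selected). Of the 17, 3 were higher and 4 lower, both below the 26.9% and 29.2% of all genes. H2BC21 averaged 10.6 ± 1.1 CPM at P11 and 6.37 ± 0.1 CPM at P3 and H2BC12 19.5 ± 2.4 CPM at P11 and 29.3 ± 3.3 CPM at P3.

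By difference in mean CPM the leading rises were COL6A3, IGFBP5, RPL41 and COL1A1, and the leading falls MT-ND5, CAVIN1, THBS1 and MT-CO2. MT-ND5, a complex I subunit, averaged 4516 ± 590 CPM at P11 and 5715 ± 480 CPM at P3, and CAVIN1, which shapes caveolae, 2695 ± 76 CPM at P11 and 3802 ± 300 CPM at P3. CALR, the chaperone calreticulin, averaged 2622 ± 84 CPM at P11 and 2305 ± 33 CPM at P3 and ACTG1, cytoplasmic actin, 3750 ± 230 CPM at P11 and 4743 ± 69 CPM at P3. Long genes gather more reads, so these differences rank reads and not molecules.

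Some genes that dividing fibroblasts use were listed at or near 0 counts in all 6 libraries, among them ALDOA with 3 counts at P11 and 1 at P3 and FEN1 with 5 counts at P11 and 16 at P3. The table gives 0 reads in all 15 passage libraries to each of 9429 genes contained in a larger same-strand gene. A count of 0 for such a gene is therefore no measure of its expression, and 4602 of the genes tested overlap a neighbour on the same strand in part. ALDOA and FEN1 had a few reads and so are not among the genes given 0 throughout. The reason for their low counts was not tested. Among the autosomes and X, the median log2 fold change was lowest on chromosome 19 (-0.10) and highest on chromosome 18 (0.08), and it was -0.16 over 25 mitochondrially encoded genes.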
